A study of Mus musculus with 6 samples.

Results

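The genes Anxa1, Anxa2, Anxa3 and Anxa5, which encode annexins, and Fpr1 and Fpr2, which encode formyl peptide receptors, were followed through the immune cells of mouse melanomas. They were chosen by symbol, and each of the 6 symbols matched 1 row among the 32285 genes counted in both pools of cells. The cells came from YUMM1.7 melanomas, tumours of a transplanted mouse melanoma line grown under the skin of female C57BL/6J mice aged 8 weeks, and were sorted for the leukocyte antigen CD45. All 16 mice carried the floxed allele of Nr3c1 on both chromosomes (Nr3c1 fl/fl), the gene of the glucocorticoid receptor. The floxed mice carried nothing else, and the LysM-Cre mice also carried a Cre recombinase under the Lyz2 promoter, which is active in macrophages, monocytes and neutrophils, so that a deletion is limited to cells that have used this promoter. Each genotype received an isotype control antibody or anti-PD-1 at 12.5 mg/kg, 2 times per week for 3 weeks from about day 7, and tumours were taken at day 28. This gave 4 conditions of 4 mice: floxed with isotype, floxed with anti-PD-1, LysM-Cre with isotype and LysM-Cre with anti-PD-1 (below, floxed isotype and so on). Each mouse was marked with a hashtag antibody, and the submitters' table of hashtags calls the floxed mice wild type and the LysM-Cre mice knockout. The 2 pools, E5 and E6, each mixed 2 mice of every condition before the sort. In each condition, mice 1 and 2 belong to pool E5 and mice 3 and 4 to pool E6, and the numbers only name them.

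Annexins are cytosolic proteins that bind membrane phospholipids when calcium rises. Annexin A1 is a classical product of glucocorticoid action: it is released from leukocytes, acts through the receptor FPR2 and restrains neutrophil recruitment. FPR1 and FPR2 are G-protein-coupled receptors of phagocytes that also sense formylated peptides of bacteria and mitochondria. Annexin A2 pairs with the S100 protein p11 at membranes and promotes plasmin formation at the cell surface, annexin A5 binds phosphatidylserine, and annexin A3 was described as a calcium-dependent membrane protein of neutrophils.

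In the mouse assembly GRCm38.p6, Anxa1 lies on chromosome 19 from 20373434 to 20390671, Anxa2 on chromosome 9 from 69453683 to 69491792, Anxa3 on chromosome 5 from 96793385 to 96845968 and Anxa5 on chromosome 3 from 36448923 to 36475887. The receptor genes are neighbours on chromosome 17. Fpr1 (17876471 to 17883939) is read leftwards and Fpr2 (17887824 to 17893952) rightwards, and 3884 bases separate their starts. The 250 bases directly before the annotated start are shown for 4 genes because the study removes a transcription factor, the glucocorticoid receptor, from myeloid cells, and because the receptor pair was highest in the same cell class. Sequences are from RefSeq, 5′ to 3′ on the gene's own strand, at chr19:20390672-20390921 (minus strand, Anxa1), chr9:69453433-69453682 (plus, Anxa2), chr17:17883940-17884189 (minus, Fpr1) and chr17:17887574-17887823 (plus, Fpr2). RefSeq entries matched 5 of the 6 genes, all but Anxa3. Capitals mark matches to 5 motifs searched on both strands.
Anxa1: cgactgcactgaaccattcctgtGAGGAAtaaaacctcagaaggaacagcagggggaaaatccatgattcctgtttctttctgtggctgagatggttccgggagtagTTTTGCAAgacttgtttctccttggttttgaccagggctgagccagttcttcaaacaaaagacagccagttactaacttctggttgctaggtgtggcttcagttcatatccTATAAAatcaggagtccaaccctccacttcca
Anxa2: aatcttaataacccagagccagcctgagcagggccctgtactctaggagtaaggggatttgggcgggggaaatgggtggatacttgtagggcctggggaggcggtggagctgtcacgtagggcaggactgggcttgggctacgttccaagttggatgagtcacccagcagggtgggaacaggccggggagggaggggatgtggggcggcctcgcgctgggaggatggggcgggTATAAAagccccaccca
Fpr1: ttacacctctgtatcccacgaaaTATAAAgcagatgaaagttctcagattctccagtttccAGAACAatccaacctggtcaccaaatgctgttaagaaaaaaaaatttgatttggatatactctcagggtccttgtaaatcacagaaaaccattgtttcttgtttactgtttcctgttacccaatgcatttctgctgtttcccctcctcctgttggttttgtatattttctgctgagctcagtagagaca
Fpr2: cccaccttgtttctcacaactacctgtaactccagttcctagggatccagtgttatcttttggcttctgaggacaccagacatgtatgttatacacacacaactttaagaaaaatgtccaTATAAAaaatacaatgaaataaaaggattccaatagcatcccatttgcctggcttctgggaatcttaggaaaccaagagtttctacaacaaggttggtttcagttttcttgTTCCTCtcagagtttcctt

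The motifs were the TATA box TATAAA, the full glucocorticoid response element (AGAACA, 3 bases of any kind, TGTTCT), its shorter site AGAACA (contained in the full element), a C/EBP motif TTGCNNAA and a PU.1 motif GAGGAA. C/EBP and PU.1 proteins are myeloid transcription factors. Counting the last base before the start as -1, the Anxa1 stretch holds TATAAA at -32 to -27, TTTTGCAA (TTGCNNAA on the other strand) at -143 to -136 and GAGGAA at -227 to -222. In Anxa2 only TATAAA at -17 to -12 matched. Fpr1 has TATAAA at -227 to -222 and the shorter site AGAACA at -189 to -184, and Fpr2 has TATAAA at -130 to -125 and GAGGAA on the other strand at -19 to -14. None of the 5 motifs occurs in the Anxa5 stretch, and the full response element occurs in none of the 5 genes' stretches. Among 32841 promoter stretches of the same length, 12.4% hold TATAAA, 16.1% the shorter site, 9.57% the C/EBP motif, 23.3% the PU.1 motif and 0.00913% (3) the full element, on either strand. These are matches of letters only.

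Of 15301 barcodes in pool E5 and 16614 in pool E6, 16867 were kept and assigned to 1 mouse, between 133 and 3083 per mouse with 1610059 to 29402226 gene UMIs (unique molecular identifiers, each standing for 1 captured transcript). The pools shared 789 barcode sequences, which name different cells in each pool. Clustering without the 6 genes gave 29 clusters. Of these, 21 were named in 13 classes from marker genes, so each class is meant as "-like", and 8 clusters with 2771 cells (16.4%) are called by their leading genes. Although the cells were sorted for CD45, 978 of them (5.80%) carried fibroblast markers. They are called fibroblasts below, but whether they are host fibroblasts or cells of the transplanted melanoma line was not tested. Levels are given in CPM, a gene's UMIs scaled to 1000000 gene UMIs summed over the cells of 1 class in 1 mouse, for mice with at least 20 such cells. The labels do not say more about the mice than their condition. Thus p-values between conditions measure the spread between those of these 16 animals with enough cells of the class. Those between classes measure the spread of within-mouse differences.

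The receptors were highest in neutrophils. Fpr1 reached 104 ± 42.8 CPM there (SD, n = 14 mice; lowest 29.7, median 102, highest 185), against 10.9 ± 7.73 CPM in monocytes (n = 16), 6.36 ± 3.26 in the unnamed cluster led by Arg1 and Fn1 (n = 16) and 6.1 ± 4.23 in macrophages (n = 16). In all 14 mice with enough cells of both classes neutrophils exceeded monocytes, by 3.27 ± 0.98 on the log2(CPM + 1) scale (exact two-sided sign-flip permutation test over mice, p = 0.000122, adjusted p = 0.00162 over the 53 pairs of neighbouring classes tested for the 6 genes). No later neighbours in the Fpr1 order passed, and the lymphoid classes with 20 cells in a mouse had means of at most 1.52 CPM. B cells, without such a mouse, held 2 molecules in 98 cells (4.46 CPM, exact Poisson 95% interval 0.54 to 16.1). No Fpr1 molecule was counted in mast or basophil cells (0 of 1141072 UMIs, which allows up to 2.63 CPM) or in pDCs (0 of 765829, up to 3.92 CPM).

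Fpr2, the annexin A1 receptor, showed a longer gradient. Its level was 217 ± 67.7 CPM in neutrophils (n = 14; lowest 119, median 209, highest 348), 79.4 ± 24.1 in monocytes (n = 16), 37.8 ± 21.2 in the Arg1 and Fn1 cluster (n = 16) and 21.0 ± 12.3 in macrophages (n = 16). Each of these 3 steps passed, with log2 differences of 1.43 ± 0.67 in 14 of 14 mice, 1.18 ± 0.56 in 16 of 16 and 0.90 ± 0.74 in 15 of 16 (exact sign-flip permutation tests, adjusted p = 0.00162 each). Below macrophages no neighbours differed beyond their spread, from 10.4 ± 10.6 CPM in regulatory T cells (n = 9) to 1.04 ± 1.57 in CD8 T cells (n = 15). A small unnamed cluster led by Ace and Ear2 held 48 Fpr2 molecules in 115 cells of all mice, or 73.2 CPM (exact Poisson 95% interval 54.0 to 97.0, counting error only), and 139 CPM in the only mouse with 20 of its cells, with no replicate check.

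Single cells gave the same order once depth was made equal, which matters because neutrophils had a median of 2887 UMIs and monocytes 10569. After thinning every cell to 1000 UMIs, 10.7% of neutrophils, 1.28% of monocytes, 0.873% of macrophages and 0.0622% of CD8 T cells held an Fpr1 molecule. For Fpr2 these shares were 16.4%, 7.80%, 2.38% and 0.124%. Unthinned, Fpr2 was seen in 37.8% of neutrophils and 38.4% of monocytes, so in shares of cells the difference between these classes is visible only at equal depth. Shallower cells were left out (88 neutrophils, 22 monocytes, 103 macrophages and 15 CD8 T cells). CD8 T cells, with a median of 5533 UMIs, should lack both receptors, and their shares before thinning were 0.308% and 0.801%.

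**Figure D1:**
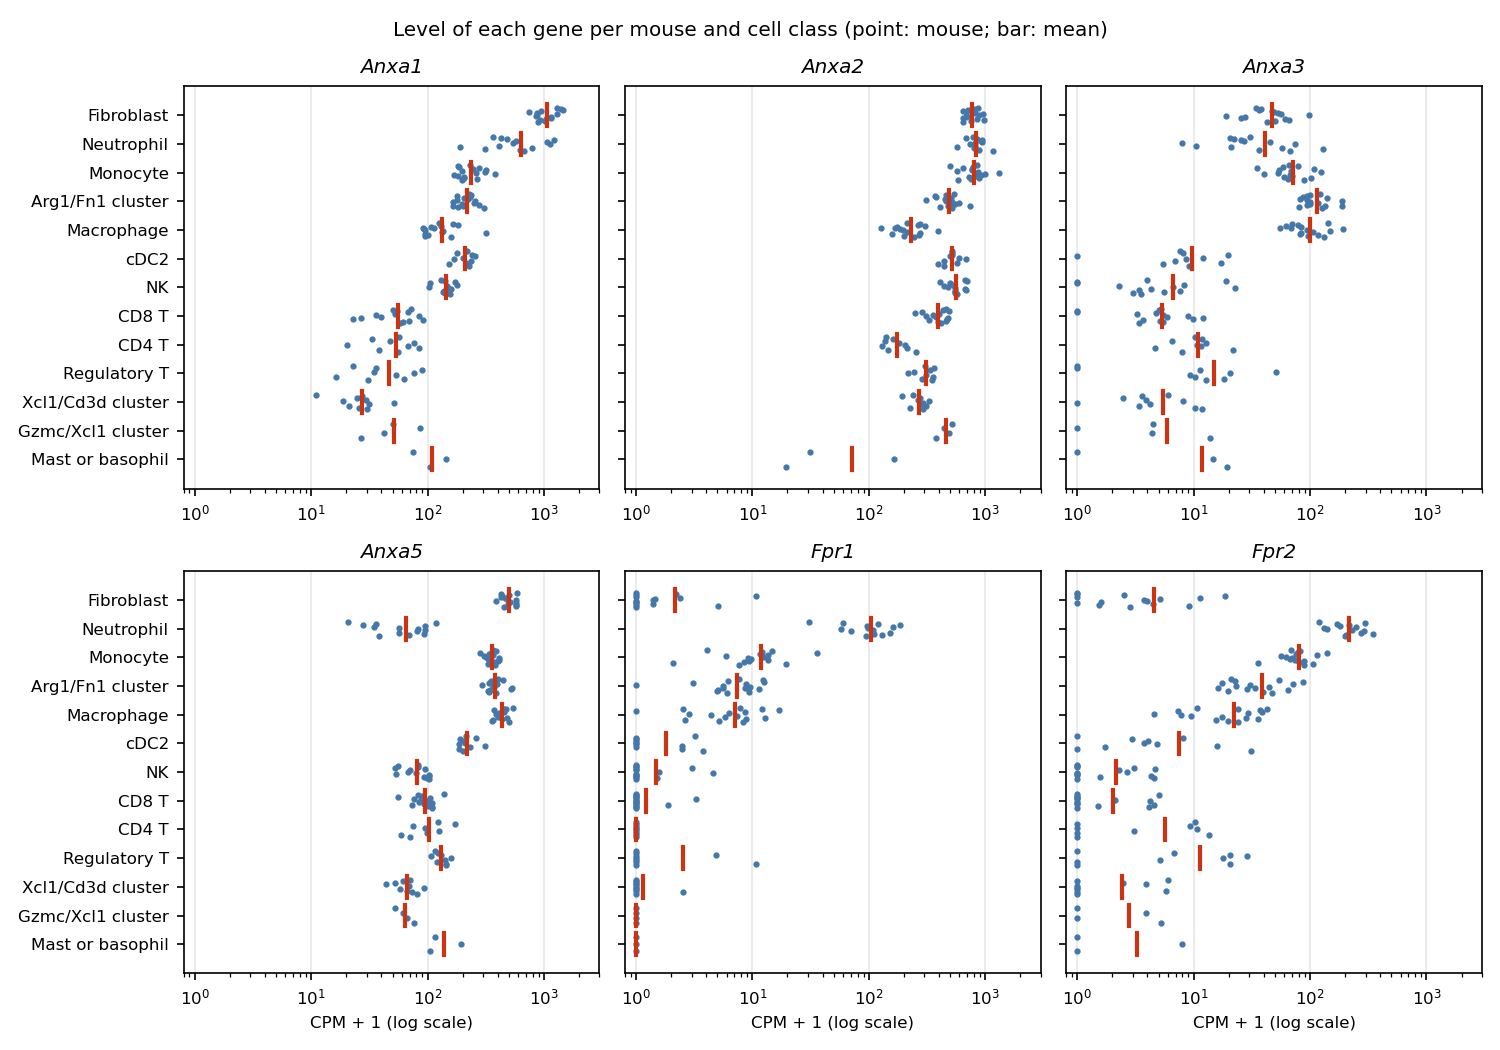
Level of each gene in the cell classes as CPM + 1 on a log axis, with 1 point per mouse and a red bar at the mean over mice; points at the left edge are mice with no molecule. Fpr1 and Fpr2 peak in neutrophils (104 and 217 CPM), Anxa1 in fibroblasts and neutrophils (1061 and 630 CPM), and Anxa3 means lie at 14.1 CPM or less in the lymphoid classes plotted.

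Anxa1, the ligand gene, was highest outside the leukocytes. Fibroblasts had 1061 ± 218 CPM (n = 15; lowest 747, median 1019, highest 1469) and neutrophils 630 ± 316 CPM (n = 14; lowest 189, median 561, highest 1219), and the ranges of these classes overlap. Fibroblasts exceeded neutrophils in 11 of 14 mice by 0.89 ± 0.91 on the log2 scale (exact permutation p = 0.00317, adjusted p = 0.0140). Neutrophils exceeded monocytes, which had 237 ± 59.7 CPM (n = 16), in 14 of 14 mice (1.30 ± 0.59, adjusted p = 0.00162, the same exact test). Monocytes, the Arg1 and Fn1 cluster (217 ± 40.4) and cDC2 (208 ± 33.0, n = 10), a dendritic cell class, did not differ beyond their spread. cDC2 exceeded NK cells (142 ± 21.2, n = 14) in 10 of 10 mice (0.56 ± 0.41, exact permutation adjusted p = 0.00941). Macrophages had 133 ± 56.2 CPM (n = 16), and the T cell classes had means between 45.9 and 55.0 CPM. With all cells thinned to 1000 UMIs, 54.1% of fibroblasts, 38.8% of neutrophils, 19.7% of monocytes and 6.28% of CD8 T cells held an Anxa1 molecule, against 98.5%, 60.02%, 70.0% and 24.5% unthinned. Fibroblasts had the deepest profiles of these classes (median 24642 UMIs).

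Anxa2 was highest in 3 classes. Neutrophils had 837 ± 139 CPM (n = 14), monocytes 800 ± 194 (n = 16) and fibroblasts 775 ± 113 (n = 15), with no neighbour difference past the threshold. Fibroblasts exceeded NK cells (559 ± 89.4, n = 14) in 13 of 14 mice (0.47 ± 0.35, exact permutation adjusted p = 0.00431). Lymphocytes also carried the transcript, with 392 ± 74.9 CPM in CD8 T cells (n = 15) and 307 ± 50.4 in regulatory T cells (n = 9). Macrophages stood low for a myeloid class at 228 ± 67.1 CPM (n = 16), below the cluster led by Xcl1 and Cd3d in 10 of 10 mice (0.49 ± 0.35, exact permutation adjusted p = 0.00941).

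Anxa3 was highest in dendritic cells of 1 kind and in the macrophage lineage, not in neutrophils. The Arg1 and Fn1 cluster had 114 ± 34.0 CPM (n = 16), macrophages 99.6 ± 36.9 (n = 16), monocytes 69.9 ± 23.9 (n = 16), fibroblasts 45.9 ± 19.5 (n = 15) and neutrophils 40.0 ± 32.4 (n = 14). Macrophages exceeded monocytes and monocytes exceeded fibroblasts, each in 13 of the mice compared (0.50 ± 0.54 over 16 mice and 0.68 ± 0.58 over 15, exact permutation adjusted p = 0.00829 for both). The highest value came from a small class: mature dendritic cells, which express Ccr7, Fscn1 and Ccl22, held 349 Anxa3 molecules in 111 cells of all mice, or 358 CPM with an exact Poisson 95% interval of 321 to 397 that covers counting error only. Only 1 mouse had the 20 cells needed, so this level has no replicate check. The other dendritic classes were low, with 8.58 ± 5.46 CPM in cDC2 (n = 10) and 1.31 CPM in the 81 pDCs of all mice (1 molecule; exact Poisson interval 0.033 to 7.28). B cells, of which no mouse had 20, held 14 molecules in 98 cells, or 31.2 CPM (17.1 to 52.4, the same interval).

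Anxa5 was highest in fibroblasts and mononuclear phagocytes and low in neutrophils. Fibroblasts had 496 ± 65.3 CPM (n = 15), macrophages 431 ± 50.6 (n = 16), the Arg1 and Fn1 cluster 381 ± 64.9 (n = 16) and monocytes 356 ± 38.5 (n = 16). Fibroblasts exceeded macrophages in 11 of 15 mice (0.20 ± 0.27, exact permutation adjusted p = 0.0467), and macrophages exceeded the Arg1 and Fn1 cluster in 14 of 16 (0.19 ± 0.22, adjusted p = 0.0210, the same exact test). Monocytes exceeded cDC2 (219 ± 39.9) in 10 of 10 mice (0.76 ± 0.26, exact permutation adjusted p = 0.00941). Neutrophils had 63.7 ± 30.3 CPM (n = 14), in the range of NK cells (80.8 ± 19.0, n = 14) and CD8 T cells (93.3 ± 19.5, n = 15). Over the 6 genes, 14 of the 53 neighbour pairs tested passed adjusted p 0.05.

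Within the named classes the genes divided the clusters in different ways. These are descriptions without a test, because the clusters come from the same cells. The 2 neutrophil clusters differed in Anxa1 and Fpr1: cluster 6, with Lcn2 and Ngp among its leading genes, had 971 ± 353 CPM of Anxa1 and 171 ± 25.0 of Fpr1 (n = 6 mice), and cluster 7, with Cxcr2 and Csf3r, had 387 ± 177 and 74.1 ± 33.8 (n = 13). Their Fpr2 levels were close, 223 ± 56.7 and 201 ± 84.6 CPM. Median depth was 3499.5 UMIs per cell in cluster 6 and 2492 in cluster 7.

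Among the 4 monocyte clusters, Anxa2 ranged from 439 ± 137 CPM in cluster 0 (led by Cxcl9 and Ly6i, n = 14) through 663 ± 131 in cluster 9 (Saa3 and Cxcl10, n = 10) and 1062 ± 162 in cluster 2 (Saa3 and Chil3, n = 13) to 1565 ± 276 in cluster 17 (Mmp12 and Slpi, n = 7). Fpr2 did not follow this order: clusters 9 and 0 had 116 ± 56.8 and 101 ± 34.3 CPM, and cluster 2 had 52.8 ± 32.5. Anxa1 was lowest in cluster 0 (126 ± 33.4) and highest in cluster 2 (340 ± 85.4). Anxa5 was nearly even over the 4, from 321 ± 57.9 to 405 ± 75.7 CPM.

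Macrophages split by Anxa3 and Fpr2. Cluster 8, led by Fcrls and Pf4 with Mrc1 and Stab1, genes of resident-type macrophages, had 155 ± 39.4 CPM of Anxa3 and 7.47 ± 5.19 of Fpr2 (n = 14). Cluster 11, led by C1qc and Ms4a7, had 67.8 ± 32.7 and 34.5 ± 17.6 (n = 11), and cluster 14, led by the proliferation genes Pclaf and Mki67, had 78.9 ± 32.5 and 21.7 ± 17.3 (n = 12). In CD8 T cells, Anxa2 was 499 ± 96.7 CPM in cluster 13, led by Ifng (n = 10), and 238 ± 30.6 in cluster 5 (n = 13).

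**Figure D2:**
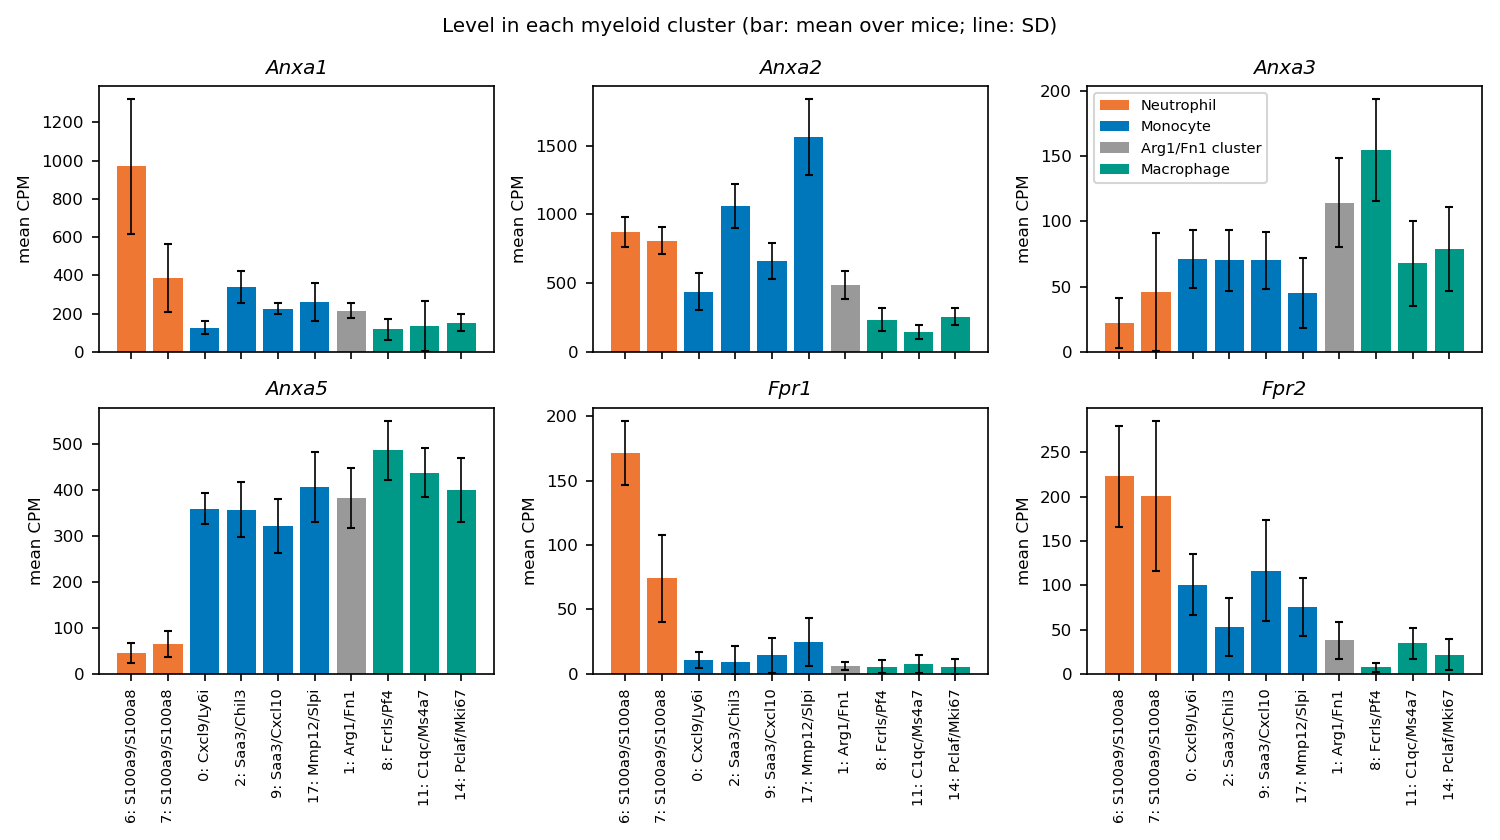
Level in CPM (linear axes from 0) in the clusters that make up neutrophils, monocytes and macrophages and in the Arg1 and Fn1 cluster, with bars for the mean over mice with at least 20 cells and error bars of 1 SD. Anxa1 and Fpr1 are higher in neutrophil cluster 6 than in cluster 7, Anxa2 is highest in monocyte cluster 17 (1565 CPM), and Anxa3 in macrophage cluster 8 (155 CPM).

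The first comparison between conditions asks whether the genes differ where the glucocorticoid receptor gene is targeted. The targeted gene itself was lower in LysM-Cre myeloid cells: Nr3c1 had 67.5 ± 3.26 CPM in monocytes of the 8 floxed mice (62.7 to 72.4) and 43.2 ± 15.6 CPM in the 8 LysM-Cre mice (24.8 to 67.4), with 6 LysM-Cre mice below all floxed mice. The change over both antibodies was -0.73 ± 0.12 (log2 ± SE, edgeR adjusted p = 0.0491). It was smaller with isotype (-0.39 ± 0.17, edgeR adjusted p above 0.99) than with anti-PD-1 (-1.07 ± 0.18, adjusted p = 0.0776). The interaction did not pass (-0.68 ± 0.25, edgeR adjusted p = 0.855). Over both antibodies the Nr3c1 change was -0.80 ± 0.22 in macrophages (edgeR adjusted p = 0.410) and -0.68 ± 0.15 in the Arg1 and Fn1 cluster (adjusted p = 0.267). Neutrophils had enough mice for the genotype contrast with isotype only, where it was -0.85 ± 0.35 (edgeR adjusted p = 0.994). In fibroblasts, whose origin from the host was not tested, the change over both antibodies was 0.08 ± 0.10. The monocyte call held in 2 of the 16 fits that left out 1 mouse, those without LysM-Cre isotype mouse 1 or 4, with log2 changes of -0.80 to -0.61 and adjusted p of 0.0158 to 0.165 over the 16. Counts come from transcript 3′ ends and the labels do not name the deleted exons, and whether these reads lie in the deleted part is unknown.

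None of the 6 genes passed in any genotype contrast. With isotype, 46 tests in 11 classes gave no adjusted p under 0.05 with edgeR or DESeq2, and 1 had an unadjusted p under 0.05 (2.17%, against 3.20% of all gene tests). Over all genes and classes 0.00802% passed. With anti-PD-1 the 28 tests in 6 classes gave 0 calls with either tool (background of calls 0.0127%) and 4 with unadjusted p under 0.05 (14.3%, against 8.26% of all gene tests). Over both antibodies there were 0 calls (background 0.019%) and 3 of 28 tests under p 0.05 (10.7%, against 7.56%).

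Anxa1, as the glucocorticoid-linked gene, was looked at in each mouse. In neutrophils it was 783, 311, 628 and 677 CPM in floxed mice 1 to 4 with isotype, and 576, 1065, 546 and 1128 CPM in the matching LysM-Cre group. The groups overlap, 2 LysM-Cre mice being above and 2 within the floxed range, and the fitted change was 0.50 ± 0.43 (log2 ± SE, edgeR adjusted p = 0.994). In monocytes the floxed isotype mice had 204, 206, 264 and 197 CPM and the LysM-Cre isotype mice 247, 318, 195 and 310.1 CPM, again overlapping (0.30 ± 0.22, adjusted p above 0.99). Over both antibodies the Anxa1 change was 0.08 ± 0.15 in monocytes, -0.09 ± 0.19 in macrophages and 0.02 ± 0.13 in the Arg1 and Fn1 cluster, so in these classes neither genotype was higher by more than its error.

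The receptor genes gave no genotype call either. Fpr2 in neutrophils was 272, 348, 204 and 198 CPM in floxed isotype mice and 181, 249, 131 and 139 CPM in LysM-Cre isotype mice. The LysM-Cre mice hold the 3 lowest of the 8 values, yet the ranges overlap (-0.40 ± 0.30, edgeR adjusted p = 0.994). Fpr1 in neutrophils was 150.1, 109.9, 129 and 94.1 CPM in floxed isotype mice and 94.6, 159, 96.8 and 57.2 CPM in LysM-Cre isotype mice (-0.10 ± 0.44). With anti-PD-1 only floxed mice 1 and 3 had 20 neutrophils, fewer than the 3 mice per condition required, so neutrophils are not among the tests counted above. Fitted with at least 1 mouse per condition, a choice made after seeing the data, the LysM-Cre against floxed change with anti-PD-1 was 0.50 ± 0.59 for Fpr1 (edgeR adjusted p = 0.954), -0.28 ± 0.37 for Fpr2 (adjusted p = 0.955) and 1.13 ± 0.57 for Anxa1 (adjusted p = 0.698). The 5 genes and 5 contrasts this adds in neutrophils gave 0 calls (background 0.0% in each) and 1 of 25 tests with an unadjusted p under 0.05, Anxa1 by genotype over both antibodies (0.81 ± 0.35, adjusted p = 0.795). Anxa1 was 413 and 189 CPM in floxed anti-PD-1 mice 1 and 3 and, in LysM-Cre mice 1 to 4 under this antibody, 367, 430.1, 484 and 1219 CPM, so that mouse 4 alone lay far above both floxed mice.

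Anxa2 in monocytes was lower in most LysM-Cre mice with anti-PD-1 without passing. Under anti-PD-1 the LysM-Cre mice 1 to 4 had 857, 497, 784 and 649 CPM. The floxed mice under the same antibody had 1324, 996, 918 and 845 CPM, and 3 LysM-Cre mice lay below all floxed mice (-0.59 ± 0.18, edgeR adjusted p = 0.252). With isotype the change was 0.04 ± 0.18. The make-up of the class differed as well: cluster 17, in which Anxa2 was highest, was 27.3 ± 17.2% of monocytes in floxed anti-PD-1 mice, 13.7 ± 3.97% in LysM-Cre anti-PD-1 mice, 9.57 ± 7.41% in LysM-Cre isotype mice and 4.72 ± 2.63% in floxed isotype mice (n = 4 each). Its part in the Anxa2 difference was not tested.

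**Figure D3:**
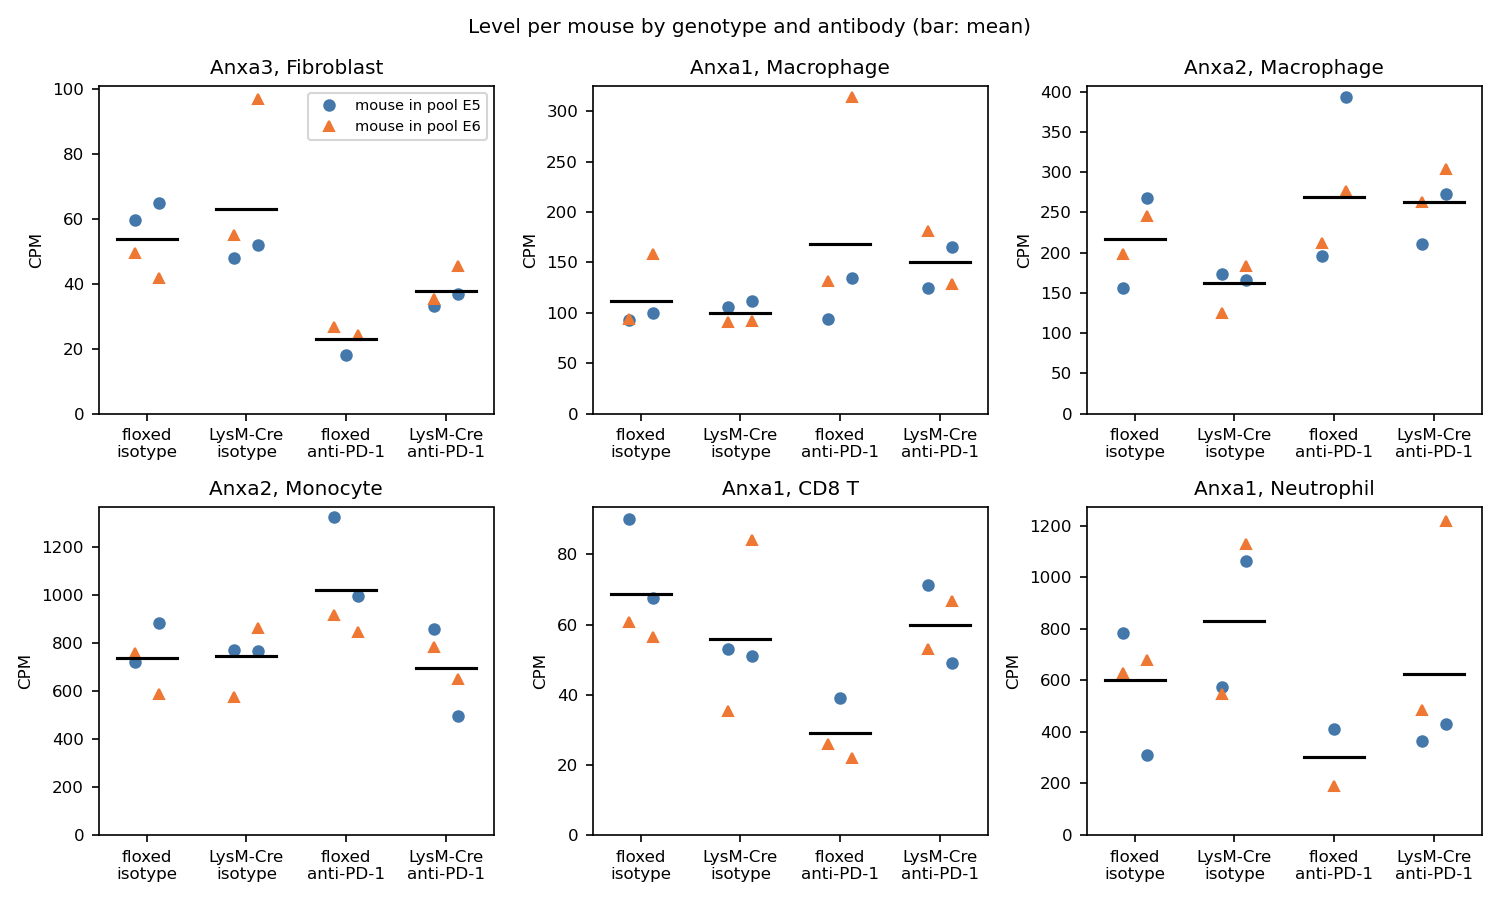
Level in CPM (linear axes from 0) by condition for Anxa3 in fibroblasts, Anxa1 and Anxa2 in macrophages, Anxa2 in monocytes and Anxa1 in CD8 T cells and neutrophils, with 1 point per mouse (shape and colour by pool) and a black bar at the mean. The fibroblast Anxa3 values of the anti-PD-1 mice (18.0 to 45.7 CPM) lie mostly below those of the isotype mice (41.9 to 97.1 CPM), and the isotype mice of both genotypes overlap for Anxa1 in neutrophils.

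Anti-PD-1 against isotype gave the only call, Anxa3 in fibroblasts. Its level was 59.7, 64.9, 49.4 and 41.9 CPM in floxed mice 1 to 4 with isotype and 47.9, 52.0, 55.2 and 97.1 CPM in their LysM-Cre counterparts. Under anti-PD-1 it was 18.0, 26.7 and 24.4 CPM in floxed mice 1, 3 and 4, and 33.1, 36.8, 35.4 and 45.7 CPM in the LysM-Cre mice. Floxed anti-PD-1 mouse 2 had fewer than 20 fibroblasts and did not enter. The groups overlap by 1 value: 6 of the 7 anti-PD-1 mice lie below all 8 isotype mice, and LysM-Cre anti-PD-1 mouse 4 lies above floxed isotype mouse 4.

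Anxa3 thus fell from 58.5 ± 17.1 CPM (n = 8) to 31.4 ± 9.15 CPM (n = 7) in fibroblasts. The fitted change was -0.97 ± 0.17 (log2 ± SE, edgeR adjusted p = 0.0319). Of the 10183 genes tested in fibroblasts 0.187% (19) passed as lower in this contrast, and of all gene tests over the 6 classes 0.184% passed in either direction. The change was -1.18 ± 0.25 in floxed mice (adjusted p = 0.174) and -0.75 ± 0.22 in LysM-Cre mice (adjusted p = 0.346). Leaving out each of the 15 mice in the fit kept the direction in 15 of 15 (-1.04 to -0.80) and ended the call in 9, those without floxed anti-PD-1 mouse 1, 3 or 4, LysM-Cre anti-PD-1 mouse 1, 2 or 3, floxed isotype mouse 1 or LysM-Cre isotype mouse 3 or 4 (adjusted p of 0.0504 to 0.109 in these). Within pool E6 alone the change was -0.84 (adjusted p = 0.189), and within pool E5 alone it was -1.13 (adjusted p = 0.0600), where floxed anti-PD-1 mouse 1 is the only mouse of its condition and is assumed to vary like the others.

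Macrophages and monocytes carry more Anxa3 than fibroblasts, and macrophage and monocyte markers were detectable in fibroblasts. All 10 of 10 macrophage markers were above 0 in both groups, with none at 0, and their summed level was 2321 ± 1336 CPM in the isotype mice (280.2 to 4712) and 1627 ± 1283 under anti-PD-1 (534.5 to 4230), against 36806 CPM in macrophages. C1qa, a complement gene of macrophages, had 317 CPM in fibroblasts of isotype mice and 197 under anti-PD-1, against 5864 CPM in macrophages. The 12 monocyte markers, none at 0, moved the other way, with a sum of 1851 ± 552 CPM in isotype mice (1129 to 2590) and 2124 ± 269 under anti-PD-1 (1731 to 2500). The 10 neutrophil markers, none at 0, summed to 377 ± 539 CPM (94.4 to 1666) and 468 ± 1061 CPM (43.9 to 2874). Their part in the Anxa3 result was not tested.

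In the remaining tests over both genotypes no other member passed with edgeR. Of 28 member tests 7 had an unadjusted p under 0.05 (25.0%, against 10.8% of all gene tests), 16 were above 0 and 12 below, with a median log2 change of 0.06 against class medians of all genes between -0.01 and 0.01. DESeq2 made 1 call. Within genotypes, the 31 tests in floxed mice gave 0 calls with edgeR (background of calls 0.0688%), 1 with DESeq2 and 6 with an unadjusted p under 0.05 (19.4%, against 9.11% of all gene tests). The 33 tests in LysM-Cre mice gave 0 calls with either tool (background of calls 0.0%) and 4 with an unadjusted p under 0.05 (12.1%, against 6.01%).

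In macrophages Anxa1 and Anxa2 were both higher with anti-PD-1 in most mice without passing. Anxa2 had 157, 268, 198 and 245 CPM in floxed isotype, 174, 166, 125 and 184 in LysM-Cre isotype and 196, 394, 212 and 276 in floxed anti-PD-1 mice. The LysM-Cre mice under anti-PD-1 had 210.2, 273, 263 and 304 CPM. All 8 anti-PD-1 mice lay above the isotype median and 4 above every isotype mouse (0.51 ± 0.15, edgeR adjusted p = 0.181). Anxa1 had 106 ± 22.7 CPM with isotype and 159 ± 67.8 with anti-PD-1 (n = 8 each), with floxed anti-PD-1 mouse 4 highest at 314 CPM (0.62 ± 0.19, adjusted p = 0.230). Without that mouse the Anxa1 change was 0.38, the lowest of the 16 fits that left out a mouse, and it was 0.33 in pool E5 alone and 0.82 in pool E6 alone.

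The macrophage clusters were not alike in this. In cluster 8, Anxa1 was 89.4 ± 27.4 and 81.8 ± 31.8 CPM in floxed and LysM-Cre isotype mice (n = 4 each) and 154 ± 40.2 and 170.5 ± 71.5 in the anti-PD-1 mice (n = 3 each). In cluster 14, the proliferating one, all 4 condition means lay between 151 and 156 CPM (n = 2 to 4). In cluster 11 it was 72.2 ± 6.6 CPM in floxed isotype mice (n = 3), 89.0 ± 19.0 in LysM-Cre isotype mice (n = 4) and, for LysM-Cre under anti-PD-1, 142 ± 57.7 (n = 3), and the single floxed anti-PD-1 mouse with 20 cells had 510.4 CPM. These cluster values carry no test.

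Other values below unadjusted p 0.05 did not pass over all genes. Anxa3 in monocytes was 82.4 ± 25.5 CPM with isotype and 57.5 ± 14.8 with anti-PD-1 (-0.45 ± 0.20, edgeR adjusted p = 0.362), the same sign as in fibroblasts. Anxa5 in the Arg1 and Fn1 cluster was 347 ± 33.7 and 415 ± 72.1 CPM (0.27 ± 0.10, adjusted p = 0.381), with 4 of 8 anti-PD-1 mice above all isotype mice. Anxa1 in fibroblasts was 957 ± 164 and 1180 ± 222 CPM (0.29 ± 0.12, adjusted p = 0.28). In CD8 T cells Anxa1 was 89.99, 67.6, 60.7 and 56.5 CPM in floxed isotype mice. Under anti-PD-1 it was 39.0, 26.0 and 21.9 CPM in floxed mice 1, 3 and 4, resting on 5 to 8 molecules in each mouse. The fitted change was -1.21 ± 0.36 (edgeR adjusted p = 0.995). Over both genotypes, macrophage markers in CD8 T cells summed to 1448 ± 427 CPM with isotype and 1110 ± 363 under anti-PD-1. Monocyte markers summed to 2745 ± 634 and 2384 ± 383 CPM, and neutrophil markers to 178 ± 61.1 and 197 ± 98.2 CPM. Their part in the Anxa1 values was not tested.

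**Figure D4:**
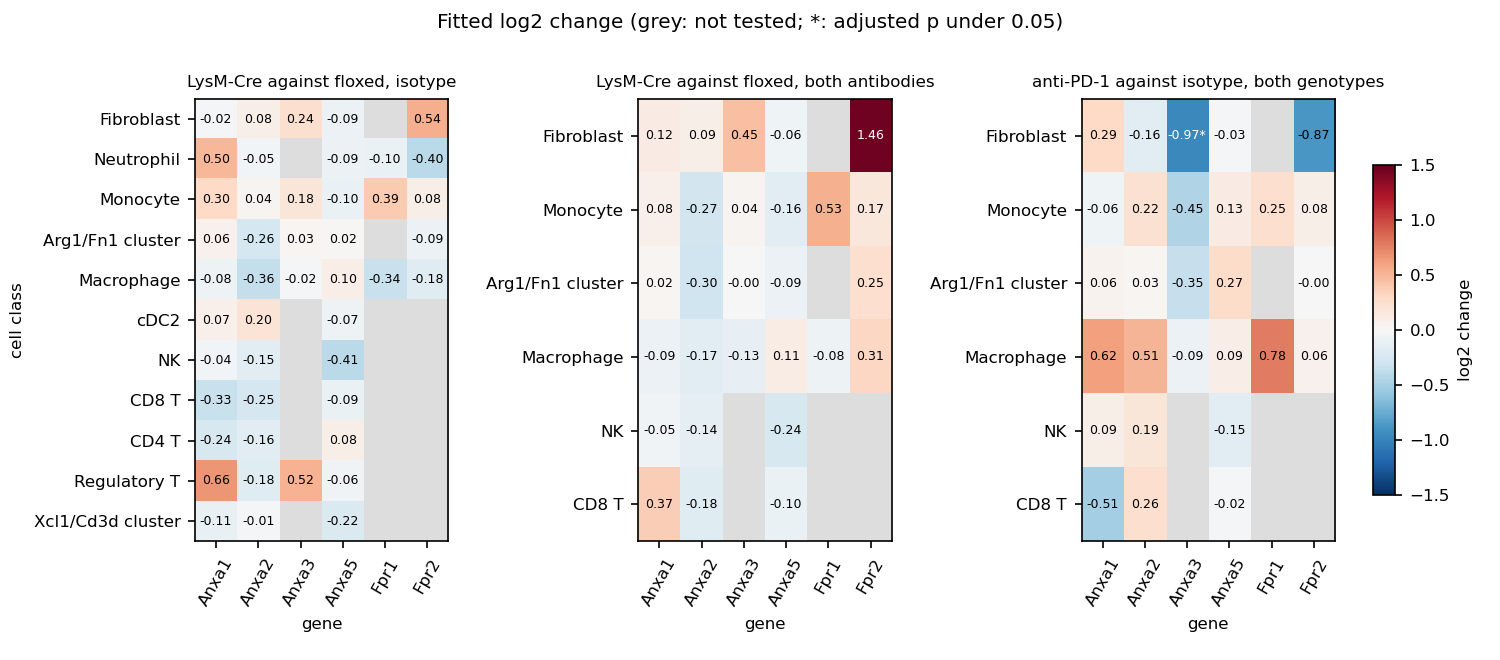
Fitted log2 change of each gene in each class (colour and printed value), for LysM-Cre against floxed with isotype, LysM-Cre against floxed over both antibodies, and anti-PD-1 against isotype over both genotypes; grey fields were not tested and the star marks adjusted p under 0.05. The star stands only at Anxa3 in fibroblasts (-0.97), and the large Fpr2 values in fibroblasts rest on a mean level of 3.58 CPM.

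Whether the anti-PD-1 difference itself depended on genotype was tested by the interaction. Of 28 tests none passed with edgeR or DESeq2 and 2 had an unadjusted p under 0.05 (7.14%, against 4.82% of all gene tests; background of calls 0.0%). These were Anxa1 in CD8 T cells (1.40 ± 0.45, adjusted p above 0.99) and Anxa2 in monocytes (-0.62 ± 0.25, adjusted p = 0.877). In monocytes Anxa2 was 721, 883, 759 and 586 CPM in floxed isotype mice against the 845 to 1324 CPM of floxed anti-PD-1 mice (0.53 ± 0.18, adjusted p = 0.182), and 772, 768, 575 and 864 CPM in LysM-Cre isotype mice, a range that covers 3 of the 4 LysM-Cre anti-PD-1 mice. The treatment contrasts within each genotype share no mice with each other, but they share their mice with the genotype contrasts.

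Related genes were described from 7 lists, and none of their members passed in any class or contrast with edgeR. Of the other annexins 4 of 8 had enough counts, and 15 of 175 tests had an unadjusted p under 0.05 (8.57%, where all genes tested in the same classes and contrasts, weighted by the list's tests, gave 6.68%; the same share of all genes follows each count below). Anxa6 was the lymphocyte annexin of this list, with 293 ± 52.8 CPM in CD8 T cells and 61.1 CPM or less in macrophages, monocytes, fibroblasts and neutrophils. Anxa11 led in neutrophils (143 ± 40.7 CPM), and Anxa4 in the Arg1 and Fn1 cluster (79.2 ± 18.0), monocytes and macrophages. The S100 partners of annexins were all tested (21 of 196 tests, 10.7%, under p 0.05, against 6.44%). S100a10, which encodes p11, the partner of annexin A2, had 92.5 ± 40.4 CPM in neutrophils, where Anxa2 was highest, and 1928 ± 356 CPM in regulatory T cells. In fibroblasts with anti-PD-1 all 4 S100 genes were below 0 with a median of -0.10, where the median of all genes was within 0.01 of 0, the lowest p being that of S100a11 (-0.53 ± 0.13, edgeR adjusted p = 0.0800).

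Of the ligand genes of FPR2 besides Anxa1, 3 of 5 could be tested, and 9 of 62 tests had p under 0.05 (14.5%, against 7.35%). Saa3, a serum amyloid A gene, had 931 ± 1438 CPM in monocytes, a spread larger than its mean. Camp, the cathelicidin gene of neutrophil granules, had 591 ± 1042 CPM in neutrophils, and Hebp1 100.03 ± 24.9 in macrophages. The other formyl peptide receptor family genes, Fpr3 and the Fpr-rs genes, gave 0 tests and had a mean of 0.0 CPM in every class, and how reads shared by near-identical copies were counted is not given in the sources used here. All 8 related chemoattractant and resolution receptors or their G protein could be tested (24 of 255, 9.41%, under p 0.05, against 7.05%), and Gnai2, an inhibitory G protein subunit these receptors use, had means of 413 to 1121 CPM over the classes.

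Among eicosanoid enzymes (4 of 5 tested, 13 of 135 tests, 9.63%, under p 0.05, against 6.81%) Alox5ap, which presents arachidonic acid to 5-lipoxygenase, had 1351 ± 401 CPM in neutrophils and 1095 ± 220 in monocytes. Pla2g4a, which encodes a phospholipase A2, the kind of enzyme annexin A1 was first described to inhibit, was 0.47 ± 0.12 higher on the log2 scale with anti-PD-1 in monocytes without passing (edgeR adjusted p = 0.115). The 15 glucocorticoid-responsive genes gave 91 of 655 tests under p 0.05 (13.9%, against 6.58%) and 0 calls. In LysM-Cre against floxed monocytes over both antibodies 4 of the 14 tested were above 0 and 10 below, with a median of -0.10. Of all genes 49.9% were above 0 there, and their median was within 0.01 of 0. In the same contrast in fibroblasts 13 of 14 were above 0, against 52.3% of all genes, with a median of 0.53 against 0.01 for all genes. The cause was not tested.

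Across the mean levels of 11 named classes, the most similar genes among 11304 were found by Pearson correlation of log2(CPM + 1), as a description of profiles that share cells and libraries. Fpr1 and Fpr2 were alike (r = 0.914). The genes nearest to Fpr1 were Clec4d (0.970), Tgm1 (0.964) and Csf3r (0.963), the last being the receptor of the neutrophil growth factor G-CSF. Fpr2 lay nearest to Msrb1 (0.967), Wsb1 and Atp2c1. Anxa1 lay nearest to Kctd11 (0.965), Rnf24 and Igfbp6, and its profile was far from those of its receptor Fpr2 (0.396) and of Anxa5 (0.067). Anxa5 was near Iqsec2 (0.969), Gsto1 and its own family member Anxa4 (0.945), Anxa3 near Tbc1d24 (0.957), Lamp1 and Arl8a, and Anxa2 near B230216N24Rik (0.932), AA467197 and Gadd45g.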

How the data were processed

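CITE-seq libraries of 2 pools of 8 hashtagged mice were analysed; surface antibodies were not used here. The authors deposited unnormalized UMI counts per feature and barcode. The matrices were written by Cell Ranger 6.1.2, per the file headers, whereas Cell Ranger 3.0.1 and build mm10 appear in the submitters' processing notes. Barcodes were kept (13914 and 14515) from 500 UMIs and 200 genes upwards, with no more than 10% mitochondrial UMIs, and HTODemux (Seurat 5.3.0, positive quantile 0.99) assigned 8065 and 8802 to 1 hashtag. Doublets of 2 hashtags and negatives were left out, and doublets with the same hashtag remain. The conditions of hashtags come from the deposited antibody table.

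Clustering used leidenalg 0.10.2 through scanpy 1.11.5 (2000 variable genes without the members, lists, Nr3c1, ribosomal, mitochondrial and antigen receptor genes; 30 components, 15 neighbours, resolution 1.0). Clusters were named from listed markers, needing 3 detected markers and a mean log2 fold of 1.0 or more, a score chosen once the files had been seen. Counts were summed per mouse and class (at least 20 cells, at least 3 mice per condition) and tested by the quasi-likelihood method of edgeR 4.0.16 (pool as covariate, TMM factors, low genes removed by filterByExpr), with Benjamini-Hochberg adjustment over all genes of a class and contrast. Neighbouring classes were compared by exact sign-flip permutation over mice of log2(CPM + 1), for at least 6 mice. Alternatives were DESeq2 1.42.0, no filter, other thresholds, hashtag rules, pools and each mouse left out. The fit was tested on simulated data.

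The members and lists were chosen with earlier results of these data known. The 6 members were named in every class, list genes where they passed or led their list in a class, Nr3c1, and the 3 most similar genes per member. S100a10, S100a11 in fibroblasts, Pla2g4a and C1qa were picked after their values were seen.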

Additional observations from a re-analysis of the deposited data

Results flagged for a closer look

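Of 123 groups of 4 mice checked (1 gene, class and condition each, at a mean of at least 10 CPM), 8 (6.50%) held 1 mouse far from the other 3, where chance alone flags about 1 in 20. For Anxa1 these were macrophages of floxed isotype mouse 4 (158.8 CPM, the others 93.2 to 99.8), monocytes of floxed isotype mouse 3 (263.8 CPM, the others 197.5 to 205.8) and neutrophils of LysM-Cre anti-PD-1 mouse 4 (1219 CPM, the others 366.7 to 484.0). Another Anxa1 value was low, in the Arg1 and Fn1 cluster of LysM-Cre anti-PD-1 mouse 3 (177.0 CPM, the others 226.6 to 235.3). Anxa3 in fibroblasts of LysM-Cre isotype mouse 4 was 97.1 CPM (the others 47.9 to 55.2), and without this mouse the anti-PD-1 change of Anxa3 was -0.80 with adjusted p = 0.0588 by edgeR. For Anxa5 they were monocytes of floxed anti-PD-1 mouse 2 (329.0 CPM from 22 cells, the others 405.6 to 412.0), neutrophils of LysM-Cre anti-PD-1 mouse 2 (117.3 CPM from 24 cells, the others 19.8 to 35.1) and regulatory T cells of floxed isotype mouse 2 (119.6 CPM, the others 139.7 to 142.3).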

How the results depend on the processing

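The number of member calls stayed at 0 under all alternatives for genotype with isotype, genotype over both antibodies and the interaction. Without a filter on low counts it was 1 for genotype with anti-PD-1, 4 for anti-PD-1 in floxed mice, 3 for anti-PD-1 in LysM-Cre mice and 5 for anti-PD-1 over both genotypes, and DESeq2 gave 1 in floxed mice. The share of all genes called under these settings is not given here, so these counts have no background to be read against. The 1 call over both genotypes became 0 with at least 50 cells, since no floxed anti-PD-1 mouse had 50 fibroblasts, with pool E5 alone, where fibroblasts were left out by a minimum of 2 mice per condition and gave -1.13 with a minimum of 1 (0 calls), with pool E6 alone, with the other hashtag rule and with at most 5% mitochondrial UMIs, and ran from 0 to 1 when each mouse was left out. Anxa3 in fibroblasts was then -0.84 (pool E6), -0.73 (other hashtag rule) and -0.85 (5% mitochondrial), and -1.04 to -0.80 with each mouse left out. Anxa1 in fibroblasts with anti-PD-1 reversed to -0.02 under the other hashtag rule, and the cause was not tested. Some results described above as not passing did pass in 1 alternative. For anti-PD-1 over both genotypes these were Anxa1 and Anxa2 in macrophages, Anxa3 in monocytes (1 of 13 each) and Anxa1 in fibroblasts (1 of 11). All of these came from the same alternative, the fit without a filter on low counts. That fit also gave the pass of Anxa2 in monocytes by genotype with anti-PD-1 (1 of 13). By anti-PD-1 in floxed mice, Anxa2 in monocytes passed in 1 of 13. Anxa1 in CD8 T cells of floxed mice also passed in 1 of 11. Nr3c1 in monocytes lost its call without the pool covariate (-0.72), with at least 50 cells (-0.73), in pool E5 (-0.94) or E6 (-0.53), under the other hashtag rule (-0.66), without the highest 10% of Scrublet scores (-0.73), at 5% mitochondrial UMIs (-0.73) and at resolution 0.5 (-0.68), and ran from -0.80 to -0.61 with each mouse left out. The alternatives on Scrublet scores, resolution and a minimum of 1 mouse per condition were chosen after seeing the data, the first since the automatic Scrublet threshold marked 1 barcode. Neighbour pairs passing ranged from 11 to 18. Shares of cells depend on depth: unthinned and at 2000 UMIs, 27.9% and 20.9% of neutrophils held an Fpr1 molecule, 37.8% and 28.8% of neutrophils and 38.4% and 14.9% of monocytes an Fpr2 molecule, and 98.5% and 77.9% of fibroblasts and 60.02% and 56.9% of neutrophils an Anxa1 molecule. Comparisons between conditions were not paired, because each mouse had 1 condition and the labels match no mice across conditions. The tests of neighbouring classes were paired within mice.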
